A study of Mus musculus with 24 samples.

Results

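Enteroendocrine cells, the hormone-producing cells of the gut epithelium, arise from secretory precursors through a cascade of transcription factors. The 9 factors described here were Neurog3, Neurod1, Pax4, Pax6, Nkx2-2, Isl1, Insm1, Rfx6 and Sox4, taken as a list by name from the 45513 genes counted in every library. Each of the 9 symbols matched 1 Ensembl gene on GRCm38, and all 9 passed the filter on low counts in every comparison. RNA of sorted cells was sequenced in bulk in 24 libraries, 6 from each combination of genotype and tissue. Every mouse carried a CreERT2 placed downstream of the Atoh1 coding sequence and an R26R tdTom reporter, so that tamoxifen marks cells that are expressing Atoh1. Mice of the WT groups were Atoh1(WT)CreERT2 homozygotes, and mice of the 9S/T-A groups were Atoh1(9S/T-A)CreERT2 homozygotes, in which 9 serine or threonine residues of ATOH1 that precede a proline were changed to alanine. All were C57BL/6 mice of both sexes, 8 to 16 weeks old per the study's methods, given a single 3 mg dose of tamoxifen and killed the next day. Live EpCAM+tdTom+ cells were then collected from the small intestine (SI, its proximal part) and from the colon. No group lacked Cre, reporter or tamoxifen, and no group had an unmodified Atoh1 locus.

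Neurog3 is a basic helix-loop-helix (bHLH) factor switched on briefly in a small share of secretory precursors, and the mouse intestine forms no enteroendocrine cells without it. It acts downstream of ATOH1, which is itself a bHLH factor and is shared by goblet, Paneth and enteroendocrine lineages. Neurod1, Insm1, Nkx2-2, Pax4, Pax6, Isl1 and Rfx6 follow Neurog3 and divide the later steps among themselves, up to the choice of hormone. bHLH proteins bind DNA as dimers at a short sequence called an E-box, and Id proteins block them by taking up their dimer partners.

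In these libraries the 9 factors were at the highest mean level in SI of WT mice, then in SI of 9S/T-A mice, then in colon of WT and last in colon of 9S/T-A mice, and this order was the same for each of the 9. Between the neighbours in that order the 6 library values of the groups overlapped, except for Neurog3 between 9S/T-A SI and WT colon and for Pax4 between WT colon and 9S/T-A colon. The tissue difference passed the test for 9 of 9 factors in both genotypes with TMM scaling, all lower in colon. Of all genes tested, 30.4% in WT and 28.0% in 9S/T-A were called lower in colon. When libraries were scaled by plain totals, Sox4 was higher in 9S/T-A colon. Between genotypes Sox4 alone passed the main test (edgeR), in SI, where 0.905% of all genes were called lower in 9S/T-A. That call was kept in 5 of the 12 fits that leave out 1 library. In SI, DESeq2 called 4 of the 9, beside 2.04% of genes lower. A fit with the replicate number as a block called 7, beside 1.53%.

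The sequence upstream of 4 of the 9 genes is shown for orientation, since the products of Atoh1, Neurog3 and Neurod1 bind E-boxes. Neurog3 and Neurod1 are the bHLH factors of the list, Nkx2-2 varied closely with both across libraries, and Sox4 was the factor that passed the main genotype test in SI. Each run holds the 250 bases before a RefSeq transcription start (GRCm38.p6), 5′ to 3′ on the gene's strand, in lower case, with every match to the E-box letters CANNTG in capitals.
Neurog3, chr10:62132840-62133089, plus strand: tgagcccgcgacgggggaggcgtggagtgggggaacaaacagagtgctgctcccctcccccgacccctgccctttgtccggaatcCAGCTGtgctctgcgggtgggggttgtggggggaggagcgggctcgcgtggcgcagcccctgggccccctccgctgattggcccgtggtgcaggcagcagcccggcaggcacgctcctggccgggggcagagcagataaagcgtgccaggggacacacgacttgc
Neurod1, chr2:79456637-79456886, minus strand: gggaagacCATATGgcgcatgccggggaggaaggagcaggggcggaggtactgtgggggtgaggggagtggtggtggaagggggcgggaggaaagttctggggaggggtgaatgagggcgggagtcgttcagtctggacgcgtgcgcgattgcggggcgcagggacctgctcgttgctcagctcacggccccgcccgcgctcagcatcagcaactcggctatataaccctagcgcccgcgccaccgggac
Nkx2-2, chr2:147186403-147186652, minus strand: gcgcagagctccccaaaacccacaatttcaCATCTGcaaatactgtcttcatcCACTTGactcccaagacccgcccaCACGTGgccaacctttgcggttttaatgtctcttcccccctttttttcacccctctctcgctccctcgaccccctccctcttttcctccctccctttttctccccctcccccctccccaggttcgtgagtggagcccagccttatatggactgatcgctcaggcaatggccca
Sox4, chr13:28953700-28953949, minus strand: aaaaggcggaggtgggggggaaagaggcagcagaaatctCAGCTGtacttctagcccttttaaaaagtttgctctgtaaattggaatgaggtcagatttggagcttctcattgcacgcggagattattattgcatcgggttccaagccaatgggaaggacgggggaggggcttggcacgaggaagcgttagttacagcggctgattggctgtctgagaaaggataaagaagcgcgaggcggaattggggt
The Neurog3 window held 1 match, 165 bases before the start, and Neurod1 held 1 match, 242 bases before it. Nkx2-2 held 3 matches and Sox4 held 1. The letters are the same on both strands, so both strands were searched. Of 32841 windows of this length upstream of mouse starts, 66.2% held CANNTG, so a match here is common. The form CAGCTG, which the Neurog3 and Sox4 windows held, was in 13.0% of windows. The form CAGATG, searched on both strands, was in 14.4% of windows and in that of Nkx2-2. In the annotation of the files, the Neurog3 window ends at the base before the gene, while the other 3 windows overlap the span given for their gene. These are letters in a window and say nothing of binding. RefSeq windows were matched for 7 of the 9 factors, with none for Pax4 and Insm1.

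Library totals ranged from 36.0 M to 65.8 M counts. Levels below are given as CPM, a gene's share of the counts of its library, after TMM scaling over all 24 libraries, where TMM corrects for the share of a library that a few abundant transcripts take. Folds, standard errors (SE) and adjusted p-values come from edgeR's quasi-likelihood test in each comparison, with Benjamini-Hochberg adjustment over all genes tested, and a gene was called at an adjusted p under 0.05. The labels number the libraries of a group 2 to 7, with 2, 5 and 7 from females and 3, 4 and 6 from males in every group. The p-values measure the spread between these libraries. In WT SI, replicates 2 and 5 were below the group mean for 9 of 9 factors and replicates 3, 4 and 6 were above it for 9 of 9. In 9S/T-A SI, replicate 2 was below the mean for 9 of 9 and replicate 6 above it for 9 of 9. In bulk RNA, fewer cells that express a gene and less RNA per cell cannot be told apart.

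The sorted cells were checked against marker genes. The 7 goblet markers summed to between 314610.2 and 507454 CPM in SI and between 35664 and 81944 CPM in colon. The 7 Paneth markers summed to 41519 CPM or more in SI and at most 1494 CPM in colon. Other sources of endocrine-type factors were also checked, since enteric neurons and pancreatic islets use several of the same genes. The islet genes Ins1 and Ins2 and the neuron and glia genes Hand2 and Sox10 were at 0 in all 24 libraries. Iapp, another islet gene, was detected in every group, at 0.364 CPM or less. The 9 pancreas markers summed to at most 18.7 CPM in any SI library but to 93.4 CPM or more in every colon library, there nearly all Cela1. Among them Pnlip, Cpa1 and Prss2 peaked at 2.36, 1.44 and 0.944 CPM in SI of 9S/T-A mice. Their means in that group were 0.393, 0.240 and 0.157 CPM, so the peaks do not give the level of the group. For SI of WT mice these genes stayed at 0.0679 CPM or less. The 8 neuron and glia markers together reached at most 12.3 CPM, most of it Ret. The 8 leukocyte markers summed to at most 37.7 CPM.

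**Figure D1:**
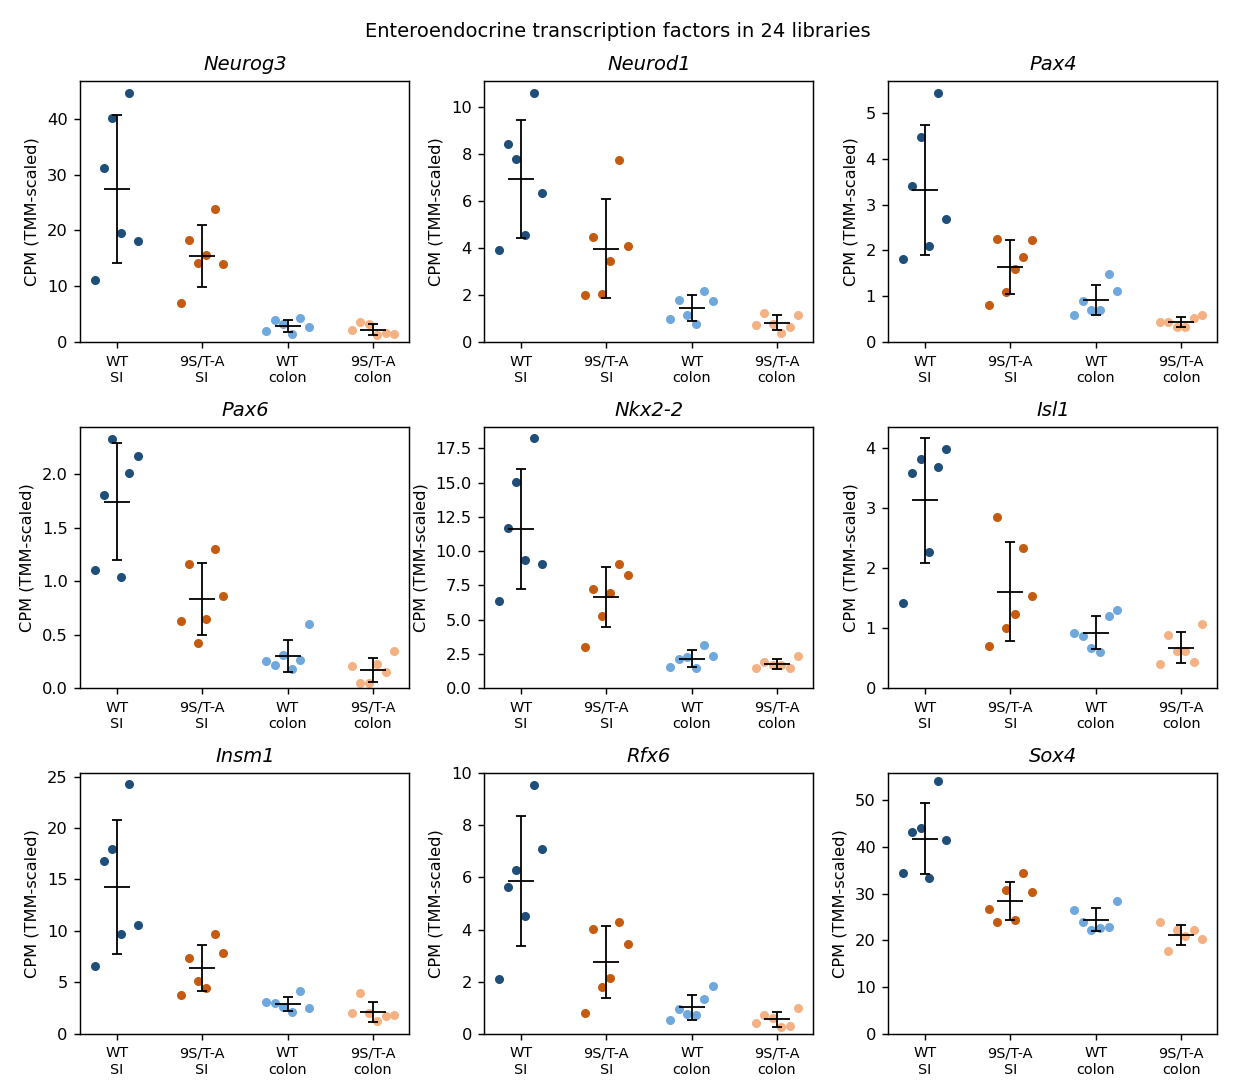
Expression of the 9 factors in each library, in TMM-scaled CPM, with 1 panel per gene and an axis that starts at 0. Points are libraries in the order of their replicate numbers, and bars give the mean and SD of 6 libraries. The groups stand in the same order in every panel, from WT SI down to 9S/T-A colon, and the SI values of Neurog3 in WT run from 11.1 to 44.6 CPM.

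Neurog3, the factor that commits a precursor to the endocrine lineage (ENSMUSG00000044312, chr10:62133090-62134763, plus strand), had a level of 11.1 CPM in the lowest, 25.3 in the median and 44.6 in the highest WT SI library. In 9S/T-A SI its lowest, median and highest levels were 6.97, 14.9 and 23.9 CPM. In colon they were 1.46, 2.94 and 4.24 CPM in WT, against 1.22, 1.85 and 3.67 CPM in 9S/T-A. SI libraries of both genotypes were all above all colon libraries, while the genotypes overlapped within each tissue. Replicate 6 was highest and replicate 2 lowest in both SI groups.

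Sox4 (ENSMUSG00000076431, chr13:28948919-28953713, minus strand) is an HMG-box factor found in crypt progenitors as well as in endocrine precursors. It varied least within groups, with 33.3, 42.3 and 54.1 CPM as its lowest, median and highest level in WT SI, against 23.96, 28.4 and 34.4 CPM in 9S/T-A SI. The colon levels were 22.3, 23.3 and 28.4 CPM in WT, against 17.7, 21.6 and 23.9 CPM in 9S/T-A. In SI, 5 of 6 9S/T-A libraries were below every WT library, and replicate 6, at 34.4 CPM, was the exception.

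The early targets of Neurog3 had the same order of groups. Neurod1 (ENSMUSG00000034701, chr2:79452521-79456751, minus strand), a bHLH factor that also halts the cell cycle in endocrine cells, had lowest, median and highest levels of 3.94, 7.07 and 10.6 CPM in WT SI, against 1.99, 3.78 and 7.76 CPM in 9S/T-A SI. Its levels in colon were 0.781, 1.47 and 2.19 CPM in WT, against 0.402, 0.758 and 1.25 CPM in 9S/T-A. Insm1 (ENSMUSG00000068154, chr2:146221921-146225020, plus strand), a zinc-finger repressor of endocrine precursors, was at 6.56, 13.7 and 24.2 CPM in WT SI, against 3.802, 6.23 and 9.67 CPM in 9S/T-A SI. In both genes the top 9S/T-A SI libraries lay within the WT range and the bottom ones under it. In colon, Insm1 was at 2.08, 2.78 and 4.11 CPM in WT, against 1.22, 1.93 and 3.94 CPM in 9S/T-A, where 5 of 6 libraries were below every WT library. Nkx2-2 (ENSMUSG00000027434, chr2:147177546-147194243, minus strand), a homeobox factor required for most enteroendocrine types, was at 6.34, 10.5 and 18.2 CPM in WT SI, against 2.96, 7.09 and 9.03 CPM in 9S/T-A SI. Its colon levels were 1.47, 2.17 and 3.16 CPM in WT, against 1.42, 1.69 and 2.37 CPM in 9S/T-A, where 1 of 6 9S/T-A libraries was below every WT library.

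Pax4, Pax6, Isl1 and Rfx6 followed that order as well. Pax4 (ENSMUSG00000029706, chr6:28442334-28449353, minus strand), a paired homeobox factor, had lowest, median and highest levels of 1.80, 3.04 and 5.44 CPM in WT SI, against 0.813, 1.72 and 2.24 CPM in 9S/T-A SI. In colon it was at 0.600, 0.800 and 1.496 CPM in WT, against 0.331, 0.435 and 0.588 CPM in 9S/T-A, so that the highest 9S/T-A library was just under the lowest WT one. This was the only factor of the 9 whose genotypes did not overlap in a tissue, as was the case with a lower 9S/T-A level for 0.418% of all genes tested in colon. Pax6 (ENSMUSG00000027168, chr2:105668900-105697364, plus strand), a second paired homeobox factor that drives several hormone genes, was at 1.04, 1.91 and 2.33 CPM in WT SI, against 0.418, 0.754 and 1.30 CPM in 9S/T-A SI. Its colon counts were the smallest of the list, from 3 to 41 reads a library. Isl1 (ENSMUSG00000042258, chr13:116298281-116309689, minus strand), a LIM homeobox factor, was at 1.42, 3.63 and 3.99 CPM in WT SI, against 0.708, 1.38 and 2.84 CPM in 9S/T-A SI. Rfx6 (ENSMUSG00000019900, chr10:51677756-51730429, plus strand), a winged-helix factor of endocrine differentiation, was at 2.09, 5.96 and 9.56 CPM in WT SI, against 0.787, 2.81 and 4.29 CPM in 9S/T-A SI. In colon Isl1 and Rfx6 had medians of 0.888 and 0.850 CPM in WT, against 0.620 and 0.511 CPM in 9S/T-A. Neurod1, Pax6 and Nkx2-2 each have an annotated antisense neighbour. Reads were counted by strand, so antisense reads were kept apart.

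Per length, Neurog3 was the most abundant of the factors in SI and Sox4 in colon. The scale here is TPM, counts per kb of exon scaled to the same sum in every library, without TMM. In WT SI, Neurog3 was at 20.3 ± 10.2 TPM (SD, n = 6), Sox4 at 9.90 ± 2.31, Insm1 at 5.25 ± 2.44, Nkx2-2 at 4.60 ± 1.83 and Neurod1 at 2.90 ± 1.10 TPM. Pax4, Rfx6, Isl1 and Pax6 followed at 1.94 ± 0.875, 1.70 ± 0.797, 0.915 ± 0.371 and 0.173 ± 0.0690 TPM. The order held in 6 of 6 libraries at each step, except that Insm1 exceeded Nkx2-2, and Pax4 exceeded Rfx6, in 4 of 6. In 9S/T-A SI, Neurog3 was above Sox4 in 5 of 6 libraries, at 10.7 ± 3.82 against 6.31 ± 1.08 TPM. In both colon groups Sox4 was above Neurog3 in 6 of 6 libraries, at 13.1 ± 2.097 against 4.86 ± 1.90 TPM in WT and at 11.45 ± 1.45 against 3.67 ± 1.45 TPM in 9S/T-A. Neurog3 exceeded Neurod1 in all 24 libraries and Pax6 was the lowest in each group. Pax6 has an exon length of 11694 bases in the files, which lowers its per-length level.

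The first comparison asked whether blocking phosphorylation of ATOH1 at these sites went with other levels of endocrine factors in SI. All 9 had a lower estimate in 9S/T-A, with a median log2 fold change of -0.95 against 0.00023 over the 16236 genes tested. Sox4 fell by 0.56 ± 0.13 on the log2 scale (SE, adjusted p = 0.0360, edgeR quasi-likelihood), to a level 1.47-fold lower, and was the 1 factor of 9 that was called. Of all genes tested, 0.905% were called lower in 9S/T-A SI and 1.03% higher.

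The estimates for the other 8 were larger than that of Sox4 but so was their spread. Insm1 had the largest, at -1.16 ± 0.30 (adjusted p = 0.0689, edgeR), followed by Rfx6 at -1.09 ± 0.38 (adjusted p = 0.173, edgeR), Pax6 at -1.05 ± 0.29 (adjusted p = 0.0824, edgeR) and Pax4 at -1.02 ± 0.30 (adjusted p = 0.112, edgeR). Isl1 was at -0.95 ± 0.33 (adjusted p = 0.168, edgeR), Neurog3 at -0.83 ± 0.32 (adjusted p = 0.224, edgeR), Nkx2-2 at -0.82 ± 0.27 (adjusted p = 0.157, edgeR) and Neurod1 at -0.81 ± 0.32 (adjusted p = 0.233, edgeR). All 9 had an unadjusted p under 0.05, as did 2556 of the 16236 genes. In 8 of the 9 genes, all 6 of the 9S/T-A libraries were below the WT median, and for Neurod1 5 of 6 were. The share of all genes with this pattern was not counted. Most factors also varied together between SI libraries, so the 9 are not separate observations. DESeq2 called 4 of the 9 (Pax4, Pax6, Insm1 and Sox4), where it called 2.04% of genes lower. The call of Sox4 rested on single libraries. It was lost without WT SI replicate 3, 4, 6 or 7 or without 9S/T-A SI replicate 3, 4 or 5, with an adjusted p between 0.0243 and 0.0906 over the 12 fits that leave out 1 library. Without the low WT SI replicate 2, Insm1 was called as well (-1.31 on the log2 scale), beside 1.13% of genes lower. Without replicate 2 in both genotypes 4 of 9 were called (Nkx2-2, Insm1, Rfx6 and Sox4), beside 2.64% of genes lower.

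The summed levels of markers of other cell types in the SI groups are given beside these values, with no test. The 7 goblet markers summed to a median of 321782 CPM in WT, against 453150.0 CPM in 9S/T-A, over ranges of 314610.2 to 442677 and 319952 to 507454 CPM. The 7 tuft markers, all detected in both groups, had a median sum of 90.4 CPM in WT (59.6 to 136.7) and 43.5 CPM in 9S/T-A (22.1 to 117.3). The 7 Paneth markers had a median sum of 73385 CPM in WT (52369 to 84315), against 54758 CPM in 9S/T-A (41519 to 64677), and the 6 stem cell markers 986 CPM (836 to 1194), against 819 CPM (639 to 1131). The 8 absorptive markers had a median sum of 2608 CPM in WT (1803 to 4536), against 3762 CPM in 9S/T-A (3092 to 5589). The 8 stromal and endothelial markers had 9.61 CPM (6.56 to 18.8), against 4.17 CPM (3.27 to 8.09), and the 8 leukocyte markers 22.6 CPM (18.3 to 37.2), against 17.9 CPM (13.6 to 37.7). The part of these differences in the levels of the factors was not tested.

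In colon the 9 estimates were also all below 0, and none was called. Their median was -0.44 against 0.0049 over the 16997 genes tested, of which 0.0883% were called lower in 9S/T-A and 0.229% higher. Pax4 had the largest, at -1.03 ± 0.26 (adjusted p = 0.146, edgeR), and it was called by DESeq2 alone of the tools run without the replicate number, where 0.374% of genes were called lower. Rfx6 was at -0.88 ± 0.37, Pax6 at -0.80 ± 0.46 and Neurod1 at -0.79 ± 0.31. Neurog3 was at -0.36 ± 0.31, with 4 of 6 9S/T-A libraries under the WT median, and Isl1, Insm1, Nkx2-2 and Sox4 were at -0.44 ± 0.28, -0.42 ± 0.24, -0.26 ± 0.20 and -0.18 ± 0.089. With edgeR, 0 of 9 were called. The unadjusted p was under 0.05 for 3 (Neurod1, Pax4 and Rfx6), as for 1497 of the 16997 genes.

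**Figure D2:**
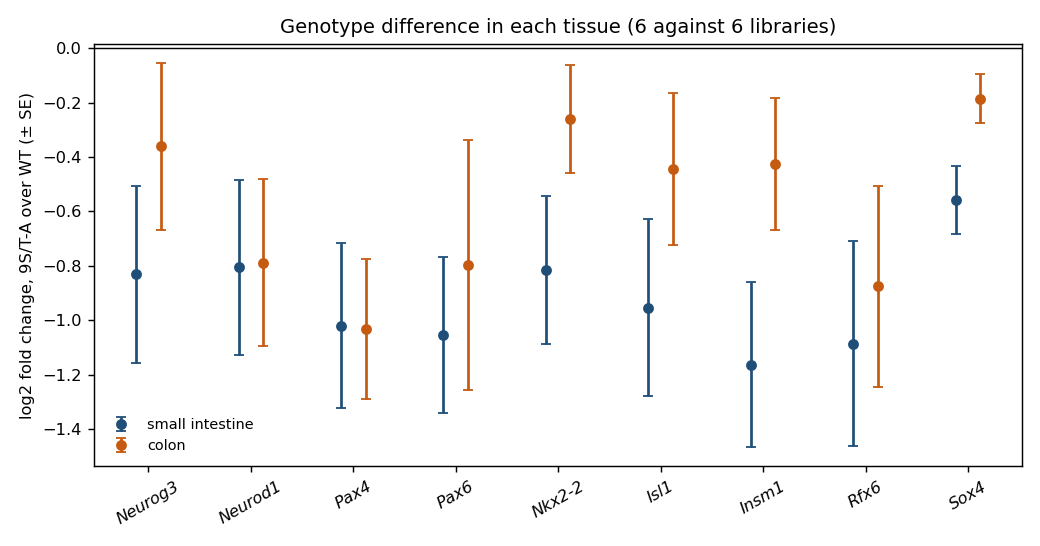
Log2 fold change of 9S/T-A over WT for each factor, in SI and in colon, with the SE as bars (6 against 6 libraries). All 18 points are below 0, from -1.16 for Insm1 in SI to -0.18 for Sox4 in colon.

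Whether the genotype difference itself differed between tissues was tested over all 24 libraries. None of the 9 was called (0.412% of the 17953 genes tested were, in either direction), and DESeq2 called 0. With edgeR 1 of 9 had an unadjusted p under 0.05, as did 1740 of the 17953 genes. For Sox4 the colon estimate was 0.35 ± 0.15 above the SI one on the log2 scale (unadjusted p = 0.0302, adjusted p = 0.428, edgeR), with a 95% interval from 0.052 to 0.66. For Neurog3 it was 0.45 above, with an interval from -0.48 to 1.37, and for Insm1 0.72 above, from -0.085 to 1.52. For Neurod1 and Pax4 it was -0.0076 and -0.032, with intervals from -0.77 to 0.76 and from -0.76 to 0.70. The intervals were taken from the SE on a normal scale.

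The levels of Atoh1 and of the granins were compared in the same fits. Atoh1 was at 92.3 ± 15.5 CPM (SD, n = 6) in WT SI, against 75.03 ± 11.04 CPM in 9S/T-A SI, and was not called (-0.30 ± 0.12 log2, adjusted p = 0.230, edgeR). In colon it was at 103 ± 15.7 and 85.9 ± 13.6 CPM (-0.24 ± 0.11, adjusted p = 0.558, edgeR). By staining, the study found no tdTom in enteroendocrine cells with chromogranin A on the day after tamoxifen, in either line. Chga, which encodes the granule protein chromogranin A, was at 44.8 ± 15.6 CPM in WT SI, against 42.3 ± 21.9 CPM in 9S/T-A SI. The difference of -0.086 ± 0.30 on the log2 scale changed sign when 9S/T-A SI replicate 2 or 4, or WT SI replicate 6, was left out. Chgb, for chromogranin B, was at 208 ± 64.4 and 164 ± 60.3 CPM in SI. In colon Chga was at 21.6 ± 5.17 CPM in WT, against 13.9 ± 4.09 CPM in 9S/T-A (-0.62 ± 0.19, adjusted p = 0.292, edgeR), and Chgb at 48.9 ± 13.1 CPM, against 32.2 ± 12.8 CPM (-0.59 ± 0.23, adjusted p = 0.440, edgeR).

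Ratios of 2 factors within a library do not depend on how libraries are scaled, and 3 such ratios were compared in the 4 pairs of groups. Each is the log2 ratio of counts per kb of exon, with 0.5 added to each count, tested by an exact two-sided permutation of 6 against 6 libraries and adjusted over the 12 tests. Neurod1 over Chga, an early factor against a granule protein, was -3.23 ± 0.32 (SD, n = 6) in WT SI, against -3.96 ± 0.19 in 9S/T-A SI, lower by 0.73 on the log2 scale (exact permutation p = 0.00433, adjusted p = 0.0104). The highest 9S/T-A library was at -3.67 and the lowest WT library at -3.73, so that the groups overlapped by 1 library each. Neurog3 over Neurod1 differed by 0.12 between the SI genotypes (exact permutation p = 0.597), from 2.73 ± 0.35 in WT to 2.85 ± 0.41. Neurog3 over Atoh1 was -1.46 ± 0.95 in WT SI, against -1.92 ± 0.51 in 9S/T-A SI (exact permutation p = 0.297). None of the 3 ratios passed the test between genotypes in colon, although Neurog3 over Neurod1 (0.41 higher in 9S/T-A) did so without 9S/T-A colon replicate 7 (0.62, exact permutation, adjusted p = 0.0148).

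**Figure D3:**
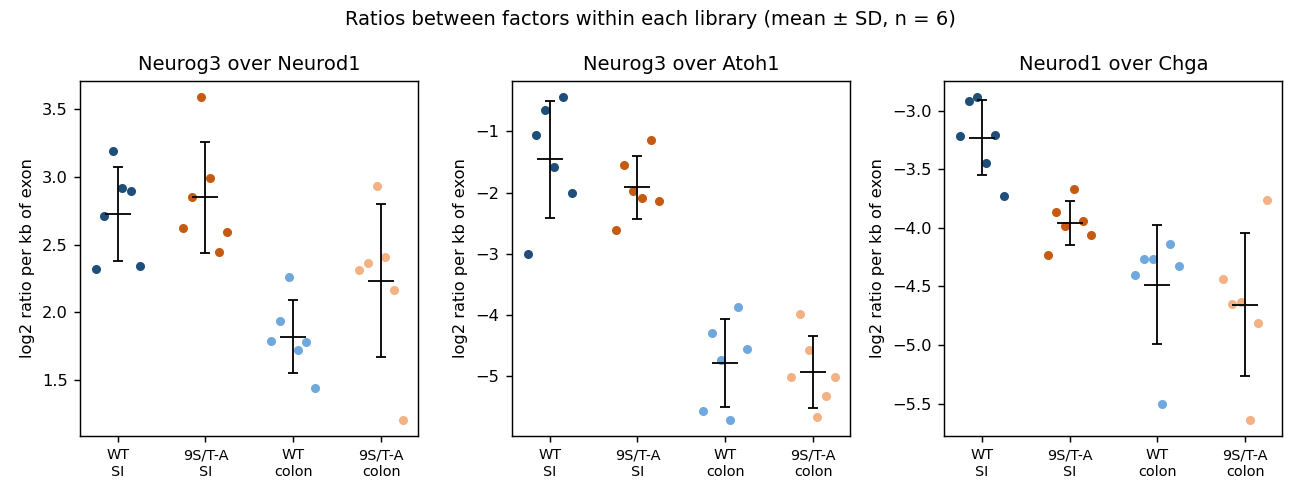
Log2 ratios per kb of exon within each library for Neurog3 over Neurod1, Neurog3 over Atoh1 and Neurod1 over Chga. Points are libraries, bars the mean and SD of 6. Neurog3 over Atoh1 does not overlap between SI and colon in either genotype, and Neurod1 over Chga is lower in 9S/T-A SI (-3.96) than in WT SI (-3.23).

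The next comparison set colon against SI within each genotype. All 9 factors were lower in colon in both genotypes with TMM scaling. Neurog3 fell the most in WT, by 3.28 ± 0.35 on the log2 scale, or 9.70-fold (adjusted p = 7.22e-07, edgeR). It was followed by Rfx6 (-2.56 ± 0.34), Pax6 (-2.55 ± 0.31), Nkx2-2 (-2.48 ± 0.25), Insm1 (-2.35 ± 0.28) and Neurod1 (-2.30 ± 0.28). Pax4 was at -1.89 ± 0.29, Isl1 at -1.79 ± 0.26 and Sox4 at -0.81 ± 0.11. The adjusted p of the 9 ran from 4.69e-07 to 4.17e-05 (edgeR), and for 9 of 9 no colon library reached the SI range. Of all genes tested in WT, 30.4% were called lower in colon and 33.1% higher, and 19.6% were lower without overlap.

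In 9S/T-A, Neurog3 fell by 2.82 ± 0.31 on the log2 scale, or 7.07-fold (adjusted p = 1.60e-06, edgeR). Rfx6 (-2.36 ± 0.40), Pax6 (-2.30 ± 0.43), Neurod1 (-2.30 ± 0.35), Nkx2-2 (-1.94 ± 0.23) and Pax4 (-1.91 ± 0.27) came next. Insm1 was at -1.62 ± 0.28, Isl1 at -1.29 ± 0.34 and Sox4 at -0.45 ± 0.10. The groups did not overlap for 6 of the 9, the exceptions being Isl1, Insm1 and Rfx6. Here 28.0% of all genes tested were called lower in colon and 32.9% higher, and 18.4% were lower without overlap. All 9 were called in each of the 12 fits that leave out 1 library, in both genotypes.

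The size of the tissue difference depended on the scaling. With plain library totals in place of TMM, the median log2 fold change of all genes moved up by 0.71 in WT and 0.80 in 9S/T-A. Neurog3 was then at -2.58 in WT and -2.02 in 9S/T-A, and 8 of 9 factors in WT and 7 of 9 in 9S/T-A were called lower. Of all genes, 11.2% were then called lower in colon and 72.1% higher in WT, and 9.76% lower and 74.1% higher in 9S/T-A. Sox4 lost its call in WT (-0.097, adjusted p = 0.518, edgeR) and turned in 9S/T-A to 0.36 higher in colon (adjusted p = 0.00741, edgeR), and Isl1 lost its call in 9S/T-A (-0.47, adjusted p = 0.241, edgeR). Relative to the median of all genes under that scaling, Sox4 was at -0.84 in WT and -0.49 in 9S/T-A. Atoh1 did not pass the test between tissues with TMM (0.12 ± 0.12 in WT, 0.17 ± 0.12 in 9S/T-A) but passed it in WT without WT SI replicate 2 (0.25, adjusted p = 0.0455, edgeR), and it was higher in colon with plain totals (0.84 and 0.97).

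**Figure D4:**
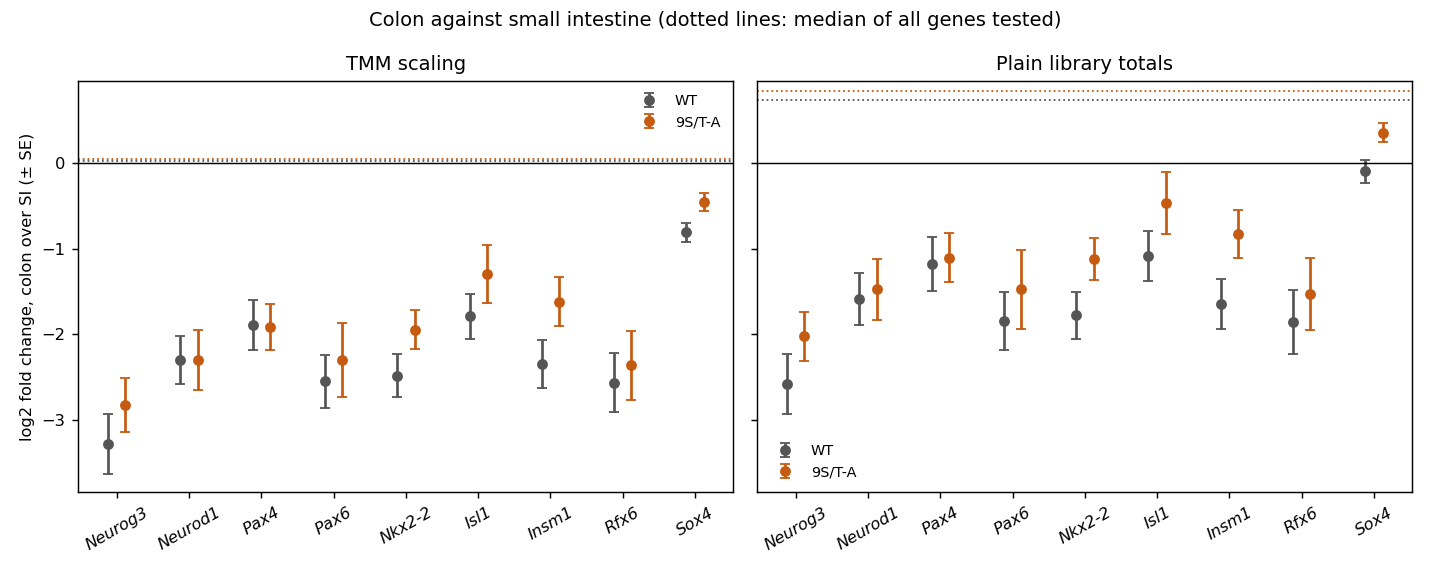
Log2 fold change of colon over SI for each factor in WT and in 9S/T-A, with SE bars, under TMM scaling (left) and plain library totals (right). Dotted lines mark the median of all genes, which lies near 0 under TMM and at 0.74 (WT) and 0.85 (9S/T-A) under plain totals. Neurog3 has the lowest value in each series and Sox4 the highest.

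The ratios gave the tissue difference free of scaling. Neurog3 over Atoh1 was lower in colon by 3.33 on the log2 scale in WT and by 3.01 in 9S/T-A, and the tissues did not overlap (exact permutation p = 0.00216, the smallest 6 against 6 libraries can give, adjusted p = 0.00649 for both). Neurog3 over Neurod1 was lower in WT colon by 0.91 (exact permutation, adjusted p = 0.00649), at 1.82 ± 0.27 against 2.73 ± 0.35 in SI. In 9S/T-A the same ratio was 2.23 ± 0.57 in colon against 2.85 ± 0.41, which missed the threshold (exact permutation, adjusted p = 0.0668) and passed it without 9S/T-A colon replicate 4 (0.00866). Neurod1 over Chga was lower in WT colon by 1.25 (exact permutation, adjusted p = 0.00649). In 9S/T-A it was lower by 0.70 (exact permutation, adjusted p = 0.0346), and this call was lost in 10 of the 12 fits that leave out 1 library, where the adjusted p reached 0.0693. Those 10 were all but the fits without 9S/T-A SI replicate 2 and without 9S/T-A colon replicate 7.

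Other genes of the endocrine program were read from lists by role, described by their counts beside the median of all genes. Among 22 other enteroendocrine transcription factors, 0 of 19 tested were called between genotypes in SI and 0 of 19 in colon, with medians of -0.31 and -0.20 on the log2 scale, where the medians of all genes were 0.00023 and 0.0049. Between tissues, the counts of each list stand beside 30.4% of all genes called lower in colon and 33.1% higher in WT (median of all genes 0.026), and 28.0% lower and 32.9% higher in 9S/T-A (median 0.042). In WT, 13 of 21 of these factors were called lower in colon and 5 higher, at a list median of -1.64, with Pdx1 (the duodenal and pancreatic homeobox factor) at -5.02 ± 0.26 and Glis3 at 3.27 ± 0.18. In 9S/T-A, 12 of 19 were lower and 4 higher, at a median of -1.01, with Pdx1 at -6.25 ± 0.32 and Runx1 at 2.06 ± 0.13. Among 12 genes of Neurog3-stage precursors, Cbfa2t3, a transcriptional co-repressor, was the 1 of 11 called in SI and was higher in 9S/T-A (0.57 ± 0.085, adjusted p = 0.00240, edgeR), at 51.9 against 35.0 CPM. That call was lost with plain library totals (0.45, adjusted p = 0.0595, edgeR). In colon 0 of 9 were called. Between tissues in WT, 9 of 11 were lower in colon and 2 higher, led by Gadd45a (-1.52 ± 0.093) and Cbfa2t3 (1.40 ± 0.089), and in 9S/T-A 7 of 10 were lower and 2 higher, led by Cdkn1a (-1.85 ± 0.16) and the Notch ligand Dll1 (-1.64 ± 0.15).

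Among 26 hormones, granins and granule enzymes, 1 of 23 tested was called higher and 1 lower between genotypes in SI. Sct, which encodes secretin, rose in 9S/T-A by 1.14 ± 0.13 on the log2 scale (adjusted p = 0.000198, edgeR), from 95.1 ± 11.4 to 210.3 ± 40.5 CPM. Gcg, which encodes glucagon and GLP-1, fell by 2.65 ± 0.30 (adjusted p = 0.000227, edgeR), from 6.09 ± 2.70 to 0.968 ± 0.304 CPM. In colon 0 of 22 were called. Between tissues, 16 of 23 were lower in colon and 3 higher in WT, and 17 of 24 lower and 3 higher in 9S/T-A. The vesicular monoamine transporter Slc18a1 was 3.02 ± 0.10 lower in WT and 3.00 ± 0.11 lower in 9S/T-A on the log2 scale. Sct was 4.35 ± 0.17 lower in 9S/T-A, and Gip was at 7.64 CPM in WT SI, against 0.00522 CPM in WT colon. Tac1, for substance P, was the 1 of 24 whose genotype difference differed between tissues (2.37 ± 0.47, adjusted p = 0.0155, edgeR), from 7.83 to 2.93 CPM in SI and from 1.43 to 2.78 CPM in colon. That call was lost without replicate 4, 5 or 6 in all groups (values from 2.03 to 2.42).

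Among 7 bHLH partners and Id proteins, Id4 and Id2 were called higher in 9S/T-A in both tissues. Id4 rose by 1.73 ± 0.12 log2 units in SI (adjusted p = 1.14e-06, edgeR) and by 1.45 ± 0.18 in colon (adjusted p = 0.00206, edgeR). Id2 rose by 0.72 ± 0.11 in SI (adjusted p = 0.00225, edgeR) and by 0.59 ± 0.11 in colon (adjusted p = 0.0393, edgeR), and in colon the call was lost with plain totals and in 9 of 12 fits that leave out 1 library, all but those without 9S/T-A colon replicate 6 or 7 or WT colon replicate 7. Between tissues 6 of 7 were lower in colon in both genotypes, with Id3 at -2.65 ± 0.11 and Id1 at -1.86 ± 0.099 in WT and with Id2 at -1.82 ± 0.10 and Id3 at -2.60 ± 0.16 in 9S/T-A. Of 12 upstream regulators of the secretory choice, 0 of 10 tested were called between genotypes in either tissue. Between tissues, 4 of 10 were lower and 1 higher in WT and 5 of 10 lower and 1 higher in 9S/T-A. Both lists stand beside 30.4% of all genes called lower in colon and 33.1% higher in WT, and 28.0% and 32.9% in 9S/T-A. The medians of the upstream regulators were -0.21 and -0.27 beside 0.026 and 0.042 over all genes. They were led by Dll4 (-1.36 ± 0.094 and -1.79 ± 0.096), by Notch2 in WT (-1.32 ± 0.18) and by Sox9 in 9S/T-A (0.65 ± 0.080).

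Most of the factors varied together from library to library, more closely in SI than in colon. Deviations of log2 CPM from the group mean were correlated over the 24 libraries, as a description. Over the 28 pairs of factors without Sox4 the median Pearson r was 0.73, from 0.023 for Neurog3 with Pax6 to 0.88 for Pax4 with Nkx2-2. The 8 pairs with Sox4 had a median of 0.33, from 0.22 to 0.41. In SI alone they ran from 0.39 with Isl1 to 0.76 with Insm1. In colon alone they ran from -0.39 with Insm1 to 0.43 with Pax6, and all but that with Pax6 were negative. Over all 36 pairs the median was 0.84 in the 12 SI libraries alone and 0.39 in the 12 colon libraries alone. The genes of a library share its depth, its scaling, its mix of sorted cells and the sex of its mouse, which such correlations also carry. Per library, the mean deviation of the 9 factors ran from -0.85 and -0.82 in replicate 2 of WT SI and 9S/T-A SI to 0.65 in replicate 6 of both.

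**Figure D5:**
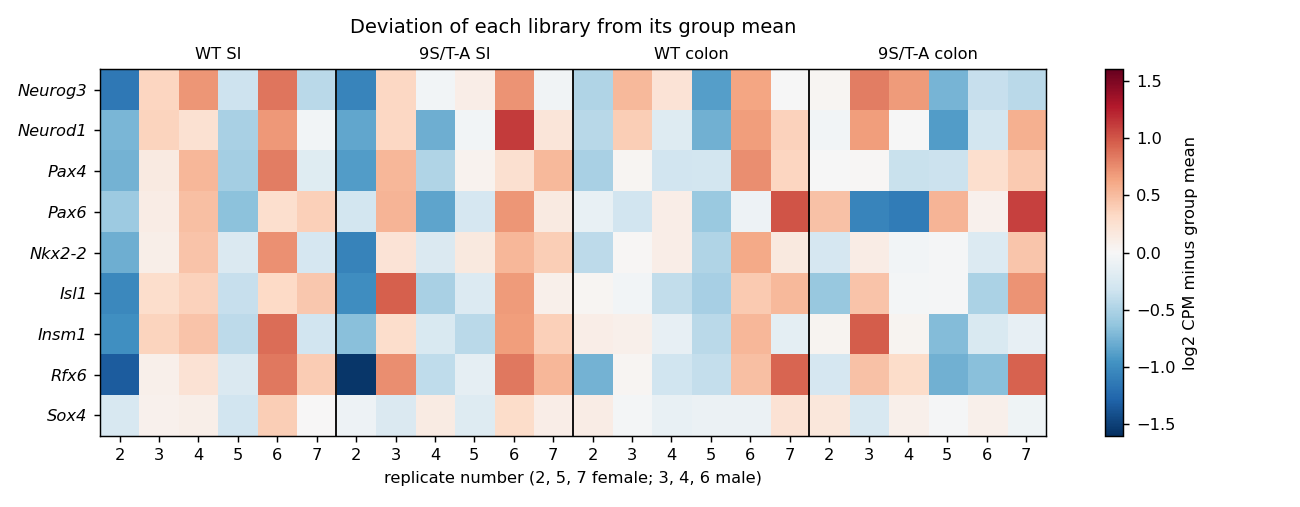
Deviation of each library's log2 CPM from its group mean for the 9 factors (rows) in the 24 libraries (columns, by replicate number within the 4 groups). Red is above and blue below the mean of the group. Columns 2 of both SI groups are blue in all 9 rows, columns 6 of both SI groups are red in all 9, and the Sox4 row is the palest.

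The genes most like each factor in these deviations were named among about 12250 genes with a symbol and a mean of at least 1 log2 CPM, which Pax4, Pax6, Isl1 and Rfx6 did not reach. For Neurog3 they were Gfra3 (r = 0.91), a receptor of the GDNF family, then Insm1 (0.86), Neurod1 (0.79), Kdm5d (0.78) and Nkx2-2 (0.77). Kdm5d lies on the Y chromosome, so its deviations follow the sex of the mouse. For Neurod1 they were Vwa5b2 (0.84), Rcor2 (0.84), Celf3 (0.83), Insm1 (0.83) and Nkx2-2 (0.81). Pax4 was most like Nkx2-2 (0.88) and Celf3 (0.87), Nkx2-2 most like Rimbp2 (0.88) and Rcor2 (0.86), Isl1 most like Baiap3 (0.90) and Rimbp2 (0.86) and Rfx6 most like Vwa5b2 (0.94) and Rimbp2 (0.94). Insm1 was most like Gfra3 (0.87) and Neurog3 (0.86). Pax6, with the lowest counts, was most like Prdm11 (0.86) and Zfand1 (0.85). Sox4 had the loosest partners, Harbi1 (0.74) and Zfp24 (0.73). Neurog3 had an r of 0.56 with Chga, 0.66 with Chgb and -0.10 with Atoh1, and Neurod1 had 0.72, 0.77 and -0.30 with the same genes.

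Because the replicate numbers fix the sex of the mouse, males and females were compared within each tissue with genotype as a covariate, a comparison chosen after the values were seen. In WT SI, Neurog3 was between 11.1 and 19.5 CPM in the 3 females and between 31.2 and 44.6 CPM in the 3 males. In 9S/T-A SI it was between 6.97 and 15.6 CPM in females and between 14.1 and 23.9 CPM in males, so the sexes overlapped. The estimate over both genotypes was 0.94 ± 0.22 log2 units higher in males in SI (unadjusted p = 0.000817, adjusted p = 0.368, edgeR) and 0.83 ± 0.22 higher in colon (unadjusted p = 0.00202, adjusted p = 0.112, edgeR). All 9 factors had a higher estimate in males in SI (7 with an unadjusted p under 0.05) and 5 of 9 in colon (2 with an unadjusted p under 0.05, of which Pax6 was lower in males). The share of all genes with an unadjusted p under 0.05 by sex is not given, so these counts cannot be judged against it. None of the 9 was called by edgeR in either tissue, where 0.037% of genes in SI and 0.253% in colon were called higher in males. Each group held 3 mice of each sex, so sex was balanced between the genotypes. With sex as a covariate, Insm1 joined Sox4 as called between genotypes in SI. That fit called 350 genes in either direction, against 315 without sex.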

How the data were processed

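RNA of sorted EpCAM+tdTom+ epithelial cells was measured in 24 libraries. Per the labels and file headers, the authors aligned reads to GRCm38.p3 with TopHat2 2.1.1 and counted primary alignments over exons by strand with featureCounts (Subread 1.5.2). DESeq2 1.14.1 is also named in the submitters' processing notes. The deposited values are raw counts for 45513 Ensembl genes per library, with totals from 36.0 M to 65.8 M, and no pair of libraries in a group was identical. Symbols were matched for 98.0% of genes.

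Counts were tested with edgeR 4.0.16 (R 4.3.3, limma 3.58.1), by quasi-likelihood F test after filterByExpr and TMM scaling, with Benjamini-Hochberg adjustment over all genes tested and a threshold of 0.05. Each comparison was fitted on its own 12 libraries, and the interaction on all 24. DESeq2 1.42.0, other scalings and filters, sex, the replicate number and left-out libraries were tried as alternatives. Ratios used exact permutation tests (scipy 1.17.1). The scripts were tested on simulated data. Whether libraries of the same number in SI and colon came from 1 mouse is not given in the sources used here, and p-values measure the spread between these libraries. Counting error weighs most where reads are few, as in colon for Pax6 (3 to 41 reads a library), Pax4 (22 to 91) and Rfx6 (20 to 125).

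The 9 factors and the gene lists were chosen with earlier results of these data known. Named in full were all 9 factors, Atoh1, Chga and Chgb. From each further list the 2 genes with the smallest adjusted p among those called were named per comparison. The 5 genes most like Neurog3 and Neurod1, and the 2 most like each other factor, were named by Pearson r of deviations from group means. Nkx6-1, Sox11, Ucn3, Gast, Hes5 and Hey1 passed the filter on low counts in no comparison.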

Additional observations from a re-analysis of the deposited data

Results flagged for a closer look

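Over the 36 sets of 6 CPM values (9 factors in 4 groups), 2 had a highest library that stood apart from the other 5 by Dixon's test, where chance gives about 1 in 20. Pax6 was at 0.597 CPM in WT colon replicate 7, against 0.304 CPM in the next library. Insm1 was at 3.94 CPM in 9S/T-A colon replicate 3, against 2.05 CPM in the next library.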

How the results depend on the processing

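The alternative fits, counted once for each of the 9 factors, gave 288 estimates in each genotype comparison and 234 in each tissue comparison. The direction was kept in all of them except for Sox4 between tissues in 9S/T-A with plain library totals (0.36). In SI, the factors called numbered 1 as reported, 4 with DESeq2, 2 with sex as a covariate, 3 in a fit to all 24 libraries and between 0 and 4 when libraries or replicate numbers were left out. In colon they numbered 0, and 1 with DESeq2. The genes called in SI went from 315 to 776 with DESeq2, 350 with sex as a covariate and 520 in the fit to all 24 libraries. In colon they went from 54 to 248 with DESeq2, 90 with no filter, 89 with sex and 103 in that fit, and for the interaction from 74 to 255 with DESeq2. Over all alternatives, left-out libraries included, they ranged from 143 to 2476 in SI, 20 to 385 in colon and 24 to 342 for the interaction. The cause of these differences was not tested.

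The interaction estimates near 0 changed sign. Neurod1 was at 0.11 with plain totals, 0.022 with no filter, 0.018 with a mean of at least 10 counts and -0.21 to 0.36 with libraries or numbers left out. Pax4 was at 0.072 with plain totals and -0.23 to 0.16 with libraries left out, Pax6 then at -0.067 to 0.56 and Rfx6 at -0.065 to 0.45. Left-out libraries also turned Chga in SI (-0.39 to 0.071), Neurog3 over Neurod1 in SI (-0.024 to 0.22), Neurog3 over Atoh1 in colon (-0.33 to 0.043) and Neurod1 over Chga in colon (-0.37 to 0.026). They moved Neurog3 over Neurod1 past the threshold in colon (0.27 to 0.62) and between tissues in 9S/T-A (-0.76 to -0.41), and Neurod1 over Chga between tissues in 9S/T-A under it (-0.88 to -0.50).

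Pairing by replicate number was checked by correlating deviations of same-numbered libraries. These were over 0.1 in 3 of 6 pairs for the genotypes in SI and in 5 of 6 in each other comparison. As not every pair was over 0.1, the number was not used as a pairing in the reported fits, although it goes with the sex of the mouse. Same-numbered pairs still averaged 0.14 (SI genotypes), 0.29 (colon genotypes), 0.20 (tissues in WT) and 0.26 (tissues in 9S/T-A). Other pairs averaged -0.028, -0.053, -0.038 and -0.052. The reported tests leave out this likeness. With the number as a block, 9 of 9 factors were called between tissues in both genotypes, beside 11716 genes in WT and 11634 in 9S/T-A in either direction. Libraries correlated best with their own number in 2 of 6 (SI genotypes), 4 (colon genotypes), 5 (tissues in WT) and 6 (tissues in 9S/T-A). With the replicate number as a block, 7 of the 9 factors were called in SI (all but Pax4 and Pax6, beside 1.53% of genes lower) and 1 in colon (Pax4, -1.0005, beside 0.771%), where Chga (-0.62, adjusted p = 0.0414, edgeR) and Chgb (-0.61, adjusted p = 0.0493, edgeR) were called too. Leaving out a number from the block fit, chosen after seeing the data, gave 3 to 9 in SI and 1 in colon without replicate 2. Those counts stand without the share of all genes called in the same fits, so they cannot be judged against it. For SI, the genes called reached 2476 over all alternative fits, where the reported fit called 315. The block took the genes called to 477 in SI, 385 in colon and 342 for the interaction, and Neurod1's interaction to 0.081. Sign flips over the pairs, whose smallest p is 0.0312, gave an adjusted p of 0.0625 for Neurog3 over Neurod1 between tissues in WT (-0.91), Neurog3 over Atoh1 in WT (-3.33) and 9S/T-A (-3.01), Neurod1 over Chga between SI genotypes (-0.73) and between tissues in WT (-1.25), and 0.125 for the last in 9S/T-A (-0.70). Depth limits Pax6 most, with as few as 3 reads in a colon library.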
